A study of Homo sapiens with 4 samples.

Results

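The genes described here are those that fold, check and degrade proteins in the endoplasmic reticulum (ER), together with the sensors that report ER stress, in LNCaP cells given exosomes of PC-3 cells. A list of 40 genes fixed by symbol was used, and every probe set annotated to exactly 1 gene of that list was taken. This gave 137 of 49395 probe sets on the arrays. All 40 genes were measured, of 18132 genes with such a probe set. LNCaP is an androgen-responsive human prostate cancer cell line, and PC-3 is a prostate cancer line that needs no androgen to grow. There were 2 arrays of LNCaP cells treated with PC-3 exosomes, small vesicles that cells release, and 2 arrays of LNCaP cells given PBS, a buffer. Both groups were grown in RPMI medium with fetal bovine serum. The sample labels give the agent of the controls as none, and PBS comes from the treatment text. The sources used here do not give the dose, the exposure time or the number of cultures.

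The ER receives proteins through the SEC61 channel, folds them with chaperones such as HSPA5 (BiP) and HSP90B1 (GRP94), and forms their disulfide bonds with protein disulfide isomerases. Proteins that do not fold are drawn back into the cytosol and degraded by the proteasome, a route called ER-associated degradation (ERAD). When unfolded proteins accumulate, the sensors IRE1 (encoded by ERN1), ATF6 and PERK (encoded by EIF2AK3) start the unfolded protein response. IRE1 splices the XBP1 mRNA, ATF6 is cut to release a transcription factor, and PERK slows translation and favours that of ATF4. Secretory cells, among them the luminal cells of the prostate, depend on this machinery.

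The response acts on promoters through the ER stress response element (ERSE). It reads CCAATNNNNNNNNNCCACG, where N is any base, and a shorter form, ERSE-II, reads ATTGG, 1 base of any kind, then CCACG. Both were searched on both strands in RefSeq promoter windows of build GRCh38.p14, each 300 bases long from 250 before to 50 after a gene's start. A window was given for 37 of the 40 genes. ERSE stood in 8 of these 37 genes (21.6%), and in 0.0916% of 27305 genes and 0.0769% of the 35116 windows given for them. ERSE-II stood in 3 of the 37 (8.11%), and in 0.0696% of those genes and 0.0541% of their windows. The stretches below show the matches with 15 bases on either side, or up to the end of the window, because textbook targets of the response such as HSPA5, HSP90B1 and HERPUD1 are among the genes that carry them. Capitals mark the element, which reads as CGTGG to ATTGG or CGTGG to CCAAT where it lies on the reverse strand.
HSPA5: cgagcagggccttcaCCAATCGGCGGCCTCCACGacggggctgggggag
HSP90B1, distal: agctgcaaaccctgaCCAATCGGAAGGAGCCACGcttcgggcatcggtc
HSP90B1, proximal: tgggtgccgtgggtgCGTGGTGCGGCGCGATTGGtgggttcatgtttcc
XBP1: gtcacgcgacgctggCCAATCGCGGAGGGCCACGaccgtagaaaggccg
CALR: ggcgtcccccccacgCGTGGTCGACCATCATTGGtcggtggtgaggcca
CRELD2: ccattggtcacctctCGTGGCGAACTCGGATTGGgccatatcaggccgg
PDIA6: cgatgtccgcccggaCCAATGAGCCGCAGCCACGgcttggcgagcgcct
CANX: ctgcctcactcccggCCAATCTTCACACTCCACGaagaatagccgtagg
ERO1B: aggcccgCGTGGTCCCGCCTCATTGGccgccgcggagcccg
HERPUD1, ERSE-II: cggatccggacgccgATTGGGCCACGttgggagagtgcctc
SDF2L1, ERSE-II: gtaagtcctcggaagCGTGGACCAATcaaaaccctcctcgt
HYOU1, ERSE-II, distal: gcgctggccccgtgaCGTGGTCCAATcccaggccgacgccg
HYOU1, ERSE-II, proximal: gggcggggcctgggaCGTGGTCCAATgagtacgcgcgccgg

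The stretches are given on the strand of their gene. Those of genes other than CANX lie upstream of the annotated start, while the CANX element begins 189, 151 or 9 bases before its different annotated starts and runs across the last of these. HSPA5 is at chr9:125241376-125241424 on the minus strand, with the element's first base 66 bases before the start. The XBP1 stretch is at chr22:28800588-28800636 on the minus strand, its element beginning 52 bases before the start. HERPUD1 is at chr16:56932010-56932050 on the plus strand, and its element begins 117 bases before the start. The HSP90B1 stretches are at chr12:103930201-103930249 and chr12:103930306-103930354 on the plus strand, and those of HYOU1 at chr11:119057365-119057405 and chr11:119057259-119057299 on the minus strand. CALR is at chr19:12938369-12938417, CRELD2 at chr22:49918539-49918587, CANX at chr5:179698763-179698811 and SDF2L1 at chr22:21642099-21642139, all on the plus strand. PDIA6 is at chr2:10812838-10812886 and ERO1B at chr1:236282168-236282208, both on the minus strand. The distal HYOU1 element overlaps a match to TGACGTGG, the core of the UPRE, an element bound by XBP1 and ATF6. This core was found in 2 of the 37 genes (HYOU1 and TXNDC11), and in 0.927% of all genes and 0.729% of all windows. The cyclic AMP response element core, TGACGTCA, was found in CREB3L2 and PPP1R15A, and in 2.25% of all genes and 1.85% of all windows. A match is a sequence in the window, not a measured binding site.

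None of the 40 genes passed the test after PC-3 exosomes, yet most lay slightly above the PBS level on the deposited scale. In the limma fit 0 rose and 0 fell at an adjusted p under 0.05, where 0.700% of all genes rose and 0.188% fell. The smallest adjusted p was 0.093, that of DNAJB9. The log2 fold changes (exosome minus PBS, of the intensity plus 1) of each gene's brightest probe set ran from -0.05 to 0.34. The largest estimate was thus 1.27-fold, but the 95% intervals reached up to 0.52, and single probe sets up to 0.43. Of the 40 genes 35 were above 0, as were 44.0% of all genes. When arrays were centred on spike-in controls (described with the arrays further on), 8 of the 40 were above 0. The median of all genes was then -0.15. At an unadjusted p under 0.05, 10 were higher and 0 lower, and the shares of all genes were 5.76% and 5.16%. Both exosome arrays were above both PBS arrays in 24 genes and below in 1, DNAJB11, and the shares of all genes were 17.8% and 21.9%. The median log2 fold change was 0.07 over the 40 genes and -0.01 over all genes.

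Of the 40 genes 38 were at or above the median level of all genes. Of these 38 genes 33 were above 0, 10 were higher at an unadjusted p under 0.05 and 23 had both exosome arrays above both PBS arrays. The shares among all genes at or above that level were 51.0%, 8.81% and 23.7%. When only those brighter genes were tested, DNAJB9, HERPUD1 and XBP1 passed the threshold, as 2.34% of the 9066 did in that direction, with adjusted p of 0.019, 0.036 and 0.042 by limma. Of the 40 genes DNAJB9 alone passed after quantile normalization (limma adjusted p = 0.036), beside 0.998% of all genes. In whole cultures, fewer cells of a kind and less RNA per cell cannot be told apart.

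**Figure D1:**
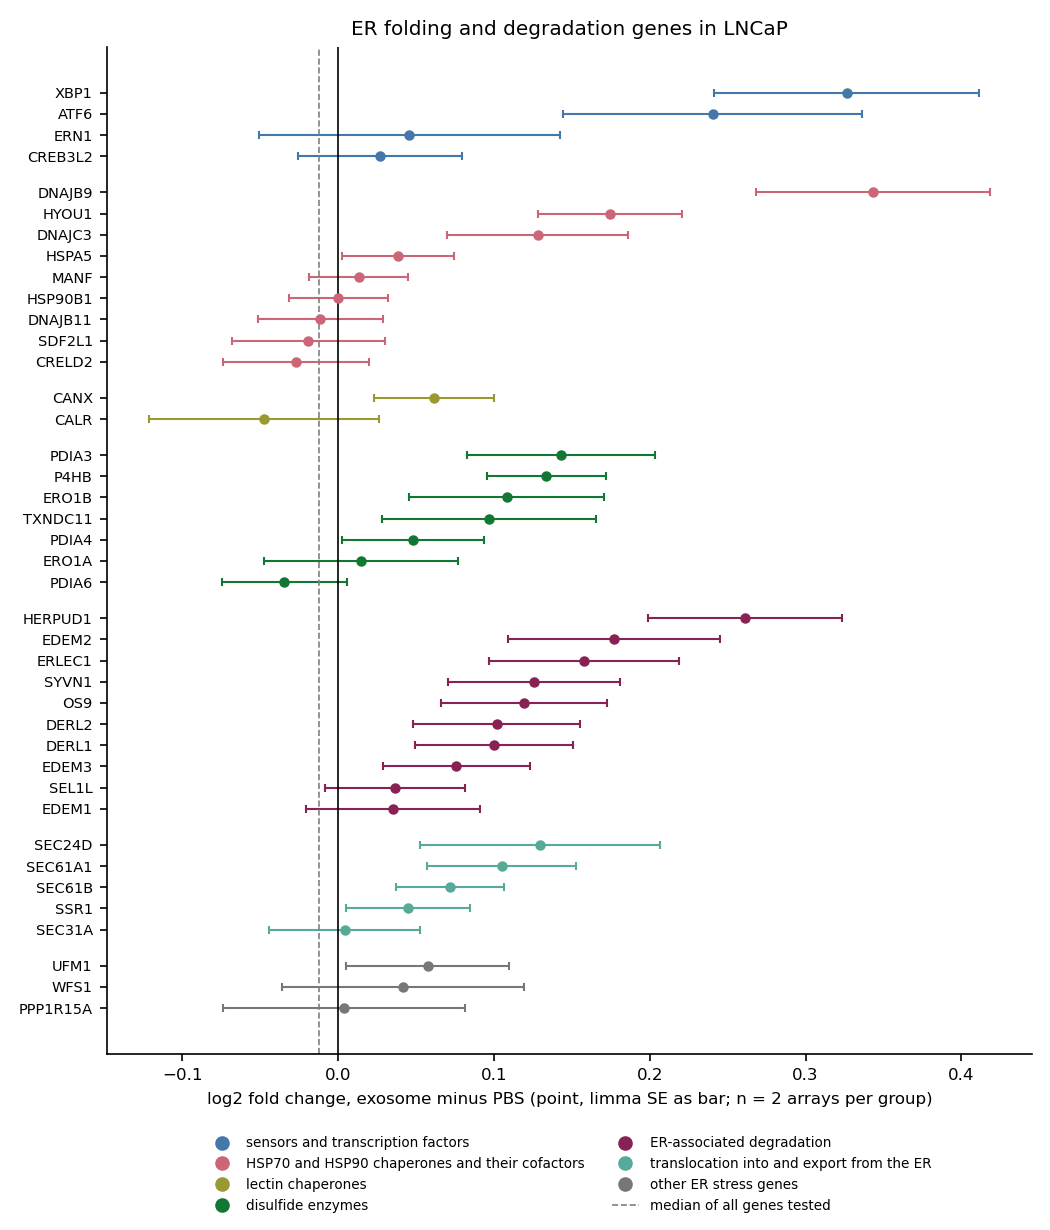
Log2 fold change of each of the 40 genes, exosome minus PBS, grouped by role; points are the limma estimate from 2 arrays per group, bars are 1 SE, and the dashed line is the median of all genes (-0.01). The points run from -0.05 to 0.34, and XBP1, ATF6, DNAJB9 and HERPUD1 lie farthest to the right. Of the points 35 lie above 0 (8 if centred on spike-ins, where the median of all genes is -0.15).

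The sensors and transcription factors were XBP1, ATF6, ERN1 and CREB3L2, and their median log2 fold change was 0.14. XBP1, the transcription factor made from the IRE1-spliced mRNA, had intensities of 1511 and 1724 with exosomes and 1398 and 1185 with PBS. Both exosome arrays lay above both PBS arrays, but the PBS arrays differed from each other by more than exosome replicate 1 differed from PBS replicate 1. The log2 fold change was 0.33 (SE 0.085, limma adjusted p = 0.166), and 0.21 without PBS replicate 2. Its 1 probe set is not described here as reading the spliced or the unspliced form, so it gives no measure of splicing. ATF6, the sensor cut in the Golgi, had 267 and 324 with exosomes and 241 and 257 with PBS. These groups did not overlap, and exosome replicate 2 stood apart from the other 3 arrays. Its log2 fold change was 0.24 (SE 0.096, adjusted p = 0.400). Of its 2 dimmer probe sets, 1 gave 0.08 and the other -0.04.

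ERN1, the kinase and nuclease IRE1, had 89.9 and 77.4 with exosomes and 78.7 and 82.9 with PBS, so the groups overlapped. Its log2 fold change was 0.05 (SE 0.096, 95% interval -0.17 to 0.26). These values are below the array medians of 111 to 112, and its SE was the largest of the 40. The dimmer ERN1 probe set gave -0.23, with overlapping arrays. CREB3L2, a membrane-bound transcription factor related to ATF6, had a log2 fold change of 0.03 (SE 0.053). Its arrays overlapped, and 4 of its 7 probe sets were below 0.

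Among the chaperones of the HSP70 and HSP90 kind and their cofactors, the J-protein DNAJB9 and the exchange factor HYOU1 had the largest values in the brightest probe set. DNAJB9 (ERdj4), a BiP cofactor that assists degradation and holds IRE1 inactive, had 697 and 740 with exosomes and 607 and 527 with PBS. Both exosome arrays were higher, and its log2 fold change of 0.34 (SE 0.075, limma adjusted p = 0.093) was the largest of the 40. Each of its 3 probe sets kept the groups apart, at 0.43, 0.34 and 0.19. The probe set at 0.19 was dim and lay near the lowest values on the arrays. HYOU1, which helps BiP release its substrate, had 1918 and 1993 with exosomes and 1759 and 1706 with PBS. These groups did not overlap and differed by 0.17 on the log2 scale (SE 0.046, adjusted p = 0.176). Another of its 9 probe sets gave 0.30, while 2 were below 0, and the mean of the 9 was 0.07. DNAJC3 (p58IPK), a J-protein that also restrains PERK, had 542 and 562 against 511 and 499, a log2 fold change of 0.13 (SE 0.058).

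The major chaperones lay close to the PBS level. HSPA5 (BiP), the central ER chaperone that also holds the sensors inactive, had 17404 and 18111 with exosomes and 16891 and 17692 with PBS. These groups overlapped, and the log2 fold change was 0.04 (SE 0.036, adjusted p = 0.773) with a 95% interval of -0.04 to 0.12. Its brightest probe set was also the one with the smallest difference: the 6 probe sets were all above 0, and the largest, 0.32, came from a dim one at 213 and 210 against 171 and 168. HSP90B1 had 22042 and 22910 with exosomes and 22215 and 22720 with PBS. Its log2 fold change was 0.0004 (SE 0.032), and the 95% interval ran from -0.07 to 0.07. Of its 7 probe sets 6 were below 0, and in 3 both exosome arrays lay below both PBS arrays, down to -0.13. DNAJB11 (ERdj3), another BiP cofactor, had 2741 and 2757 against 2772 and 2769, a log2 fold change of -0.01 (SE 0.040).

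The remaining chaperone genes are small secreted or ER-resident proteins that are strongly induced in ER stress. MANF had 10640 and 10529 with exosomes and 10458 and 10517 with PBS, which did not overlap although the log2 fold change was 0.01 (SE 0.032). SDF2L1, a partner of DNAJB11, had -0.02 (SE 0.049) and CRELD2 had -0.03 (SE 0.047). In both of these the arrays overlapped between the groups. The upper bounds of the 95% intervals were 0.09 for MANF, 0.09 for SDF2L1 and 0.08 for CRELD2.

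The lectin chaperones calnexin and calreticulin hold glycoproteins while they fold. CANX (calnexin) had 6889 and 7082 with exosomes and 6841 and 6546 with PBS. These groups did not overlap, but exosome replicate 1 and PBS replicate 1 differed little, and the log2 fold change was 0.06 (SE 0.038, adjusted p = 0.612). Each of its 9 probe sets was above 0, at up to 0.17, and 7 kept the groups apart. CALR (calreticulin) had 587 and 603 with exosomes and 660 and 572 with PBS, which overlapped. Its log2 fold change, -0.05 (SE 0.074), was the lowest of the 40.

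In the disulfide enzymes 6 of 7 genes were above 0 (1, PDIA3, with spike-in centring), with a median log2 fold change of 0.10. P4HB (PDI), the best known disulfide isomerase, had 8571 and 9052 with exosomes and 8104 and 7955 with PBS. These groups did not overlap, and the log2 fold change was 0.13 (SE 0.038, limma adjusted p = 0.210). Its 6 probe sets were all above 0, from 0.10 to 0.41, and 5 kept the groups apart. PDIA3 (ERp57), which works with calnexin and calreticulin, had 6497 and 7443 against 6469 and 6130. Exosome replicate 2 was well above the other arrays, and replicate 1 was close to the higher PBS array. The log2 fold change was 0.14 (SE 0.060, adjusted p = 0.429), and 0.15 in its other probe set. PDIA4 and PDIA6, both isomerases induced with BiP, had 0.05 (SE 0.045) and -0.03 (SE 0.040), with overlapping arrays.

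The oxidases that recharge the isomerases differed little between the groups. ERO1A had 450 and 464 with exosomes and 466 and 439 with PBS, a log2 fold change of 0.01 (SE 0.062). ERO1B had 359 and 362 against 338 and 331, groups that did not overlap, and a log2 fold change of 0.11 (SE 0.062). TXNDC11, a thioredoxin-domain protein of the ER membrane, had 0.10 (SE 0.069) in its brightest probe set. Its other probe set pointed the other way, at 15.4 and 13.3 with exosomes against 18.0 and 17.9 with PBS (log2 -0.31), near the lowest values on the arrays, 9.72 to 10.2.

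**Figure D2:**
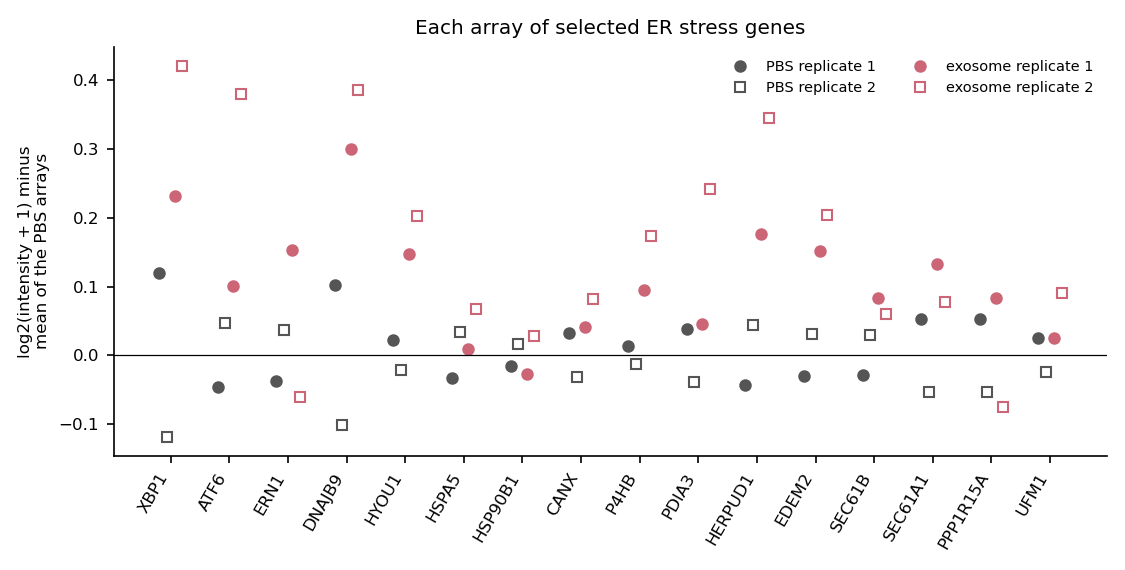
Value of every array for 16 of the genes, as log2 of the intensity plus 1 minus the mean of the 2 PBS arrays; circles are replicate 1, squares replicate 2, grey PBS and red exosome. In XBP1, ATF6, PDIA3 and HERPUD1 exosome replicate 2 is the highest array by a clear step, while in HSPA5, HSP90B1, ERN1 and PPP1R15A the groups overlap.

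The 10 ERAD genes listed were all above 0 on the deposited scale (3 with spike-in centring: HERPUD1, EDEM2 and ERLEC1), and their median log2 fold change was 0.11. In 9 of them both exosome arrays were above both PBS arrays, beside 17.8% of all genes. Of 17 further ERAD genes measured, 9 were above 0 and 8 below, with a median of 0.01, and the arrays did not overlap in 3 above and 2 below. HERPUD1 (HERP), which organises the degradation complex at the ER membrane, had 1913 and 2151 with exosomes and 1642 and 1745 with PBS. These groups did not overlap, and the log2 fold change was 0.26 (SE 0.062, limma adjusted p = 0.128). All 4 of its probe sets kept the groups apart, at 0.33, 0.26, 0.22 and 0.20. The probe set at 0.33 read 2007 and 2141 against 1688 and 1602 and had the smallest adjusted p of the 137, 0.077.

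The enzymes and lectins that mark glycoproteins for removal came next. EDEM2, a mannosidase-like protein, had 286 and 297 with exosomes and 252 and 263 with PBS, so the groups did not overlap and differed by 0.18 on the log2 scale (SE 0.068, adjusted p = 0.373). Its second probe set overlapped and gave -0.22, so its probe sets disagreed. ERLEC1, a lectin that recognises trimmed glycans, had 879 and 955 against 846 and 797, a log2 fold change of 0.16 (SE 0.061). OS9, a lectin of the same complex, had 0.12 (SE 0.053), with all 6 probe sets above 0. EDEM3 had 0.08 (SE 0.047), with all 5 above 0, and EDEM1 had 0.04 (SE 0.056) with overlapping arrays.

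At the membrane complex itself, SYVN1 (HRD1), the ubiquitin ligase, had 699 and 714 with exosomes and 634 and 661 with PBS, groups that did not overlap. Its log2 fold change was 0.13 (SE 0.055, adjusted p = 0.455). SEL1L, the adaptor that stabilises this ligase, had 1744 and 1723 against 1713 and 1667, a log2 fold change of 0.04 (SE 0.045). DERL1 and DERL2, membrane proteins of the retrotranslocation step, had 0.10 (SE 0.051) and 0.10 (SE 0.054). All 3 probe sets of DERL1 kept the groups apart.

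All 5 genes of entry into and exit from the ER were above 0 (0 with spike-in centring), and their median log2 fold change was 0.07. SEC61B, a subunit of the translocation channel, had 11438 and 11258 with exosomes and 10583 and 11015 with PBS. These groups did not overlap and differed by 0.07 on the log2 scale (SE 0.035, adjusted p = 0.500). SEC61A1, the channel's pore subunit, had 3451 and 3324 against 3267 and 3035, a log2 fold change of 0.11 (SE 0.048), and its 3 probe sets all kept the groups apart. SSR1, a subunit of the translocon-associated complex, had 0.04 (SE 0.040), with 7 of 8 probe sets above 0. Of the COPII coat proteins, which carry cargo out of the ER, SEC24D had 0.13 (SE 0.077) and SEC31A 0.004 (SE 0.048). Both of the dimmer SEC24D probe sets pointed the other way, at -0.14 and -0.10.

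The other ER stress genes stayed near the PBS level. PPP1R15A (GADD34), which ends the translation block set by PERK, had 333 and 298 with exosomes and 326 and 303 with PBS. These groups overlapped, and the log2 fold change was 0.004 (SE 0.078, 95% interval -0.17 to 0.18). WFS1, an ER membrane protein tied to calcium handling, had 0.04 (SE 0.078). UFM1, a ubiquitin-like modifier attached at the ER, had 1019 and 1066 against 1019 and 984, a log2 fold change of 0.06 (SE 0.052), and 2 of its 4 probe sets were below 0.

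Tested as single probe sets, 0 of the 137 rose and 0 fell, where 0.238% of 44988 probe sets rose and 0.0200% fell. At an unadjusted p under 0.05, 22 were higher and 4 lower, against 4.73% and 4.14% of all. In 61 probe sets both exosome arrays were above both PBS arrays and in 11 below, against 17.2% and 20.5% of all. Probe sets of a gene share its RNA and are not replicates. Of the 32 genes with more than 1 probe set, 12 had every probe set above 0, 20 had probe sets on both sides and 0 had every one below. Those with every probe set keeping the groups apart and above were DNAJB9, HERPUD1, DERL1, SEC61A1 and PDIA3. The dimmest DNAJB9 probe set lay near the lowest values on the arrays. The shares of all genes with such patterns over their probe sets were not worked out, so these counts cannot be set beside them. With each gene as the mean of its probe sets, 28 of 40 were above 0 in place of 35. HSPA5 then had 0.14 in place of 0.04. Lower values were found for HYOU1 (0.07 in place of 0.17), ATF6 (0.09 in place of 0.24) and SYVN1 (0.05 in place of 0.13). The sign turned in EDEM2 (-0.02), TXNDC11 (-0.11) and SEC24D (-0.04), among others.

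**Figure D3:**
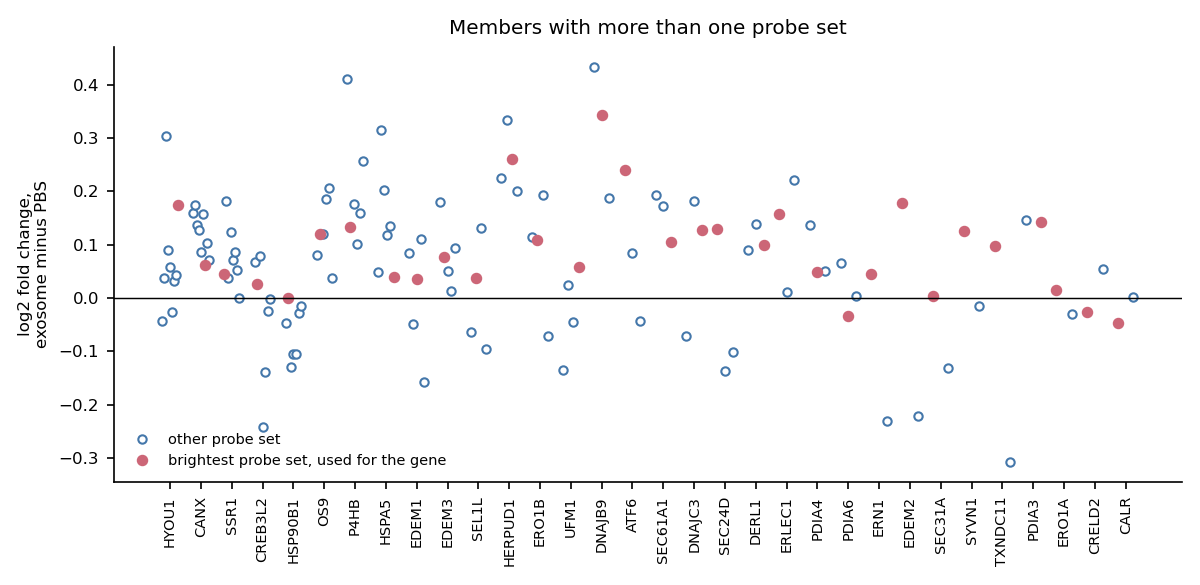
Log2 fold change, exosome minus PBS, of every probe set of the 32 genes with more than 1; the filled point is the brightest probe set, which stands for the gene, and open points are the others. All points of DNAJB9, HERPUD1, P4HB and CANX lie above 0, while 6 of 7 for HSP90B1 lie below it.

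The genes with an element in the promoter did not lie to one side. Over the 8 ERSE genes the median log2 fold change was 0.02, from -0.05 in CALR to 0.33 in XBP1. Over the other 29 genes with a window it was 0.07, from -0.02 to 0.34. HSPA5 and HSP90B1, whose elements are shown above, had 0.04 and 0.0004, and CRELD2, PDIA6 and CALR were below 0. The 3 ERSE-II genes had 0.26 (HERPUD1), 0.17 (HYOU1) and -0.02 (SDF2L1). DNAJB9, with the largest difference, had no match to any of the 4 motifs in its window.

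A further list of 97 genes of ER folding, transport and stress, with no gene in common with the 40, was used for comparison, and 91 were measured. Of these 3 rose and 0 fell, beside 0.700% and 0.188% of all genes, and the median log2 fold change was 0.04. At an unadjusted p under 0.05, 20 were higher and 2, DNAJC1 and DERL3, lower, beside 5.76% and 5.16% of all genes. The genes that rose were TRIB3, SEC11C and ATF4. ATF4, the transcription factor downstream of PERK and of other kinases that sense stress, rose from 7594 and 7184 with PBS to 8638 and 8499 with exosomes (log2 0.21, SE 0.039, limma adjusted p = 0.045). TRIB3, a pseudokinase that ATF4 induces, rose from 1932 and 1795 to 2712 and 2581 (log2 0.51, SE 0.051, adjusted p = 0.0028). SEC11C, a catalytic subunit of the signal peptidase, rose from 3194 and 3113 to 3949 and 3921 (log2 0.32, SE 0.039, adjusted p = 0.0085). With any 1 array left out, SEC11C and ATF4 did not pass the threshold, at log2 0.30 to 0.34 and 0.17 to 0.25, and TRIB3 passed in all 4 fits. As the mean of their probe sets neither TRIB3 nor SEC11C passed, at log2 0.28 (adjusted p = 0.056) and 0.26 (adjusted p = 0.090). With spike-in centring TRIB3 passed at log2 0.37, while ATF4 at 0.07 (adjusted p = 0.589) and SEC11C at 0.18 (adjusted p = 0.223) did not. By eBayes without a trend none of the 3 passed, with limma adjusted p of 0.075 for TRIB3, 0.185 for SEC11C and 0.356 for ATF4. With the replicate number as a block none passed either (limma adjusted p 0.081, 0.128 and 0.191). Of all genes 0.0993% rose without a trend and 0.0110% with the block.

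The 6 genes listed as the PERK branch were EIF2AK3, ATF4, DDIT3, TRIB3, CHAC1 and SESN2. Their median log2 fold change was 0.24, beside 0.07 over the 40 genes. In each of the 6 both exosome arrays were above both PBS arrays, as in 17.8% of all genes. PPP1R15A, which ends the translation block set by PERK, was counted among the 40 and not here. It had 0.004 with overlapping arrays, and -0.14 with spike-in centring. With spike-in centring all 6 stayed above 0, from 0.06 to 0.37, with a median of 0.10. DDIT3 (CHOP), a transcription factor of prolonged stress, had 480 and 446 with exosomes and 375 and 335 with PBS (log2 0.39, SE 0.075, adjusted p = 0.058). EIF2AK3, the sensor PERK, had 643 and 643 against 559 and 563 (log2 0.20, SE 0.055, adjusted p = 0.198). The difference between this branch and the 40 genes was not tested. DNAJC10, a disulfide reductase that assists ERAD, had 0.33 (SE 0.063, adjusted p = 0.056). As the mean of its 7 probe sets DNAJC10 had 0.19 (limma adjusted p = 0.285), and with spike-in centring 0.19. DNAJC1, a further ER J-protein, had -0.22 (SE 0.062, adjusted p = 0.204), the lowest of the list. Other chaperones and glycan quality control had a median of 0.07, and other genes of COPII transport and retrieval 0.02.

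**Figure D4:**
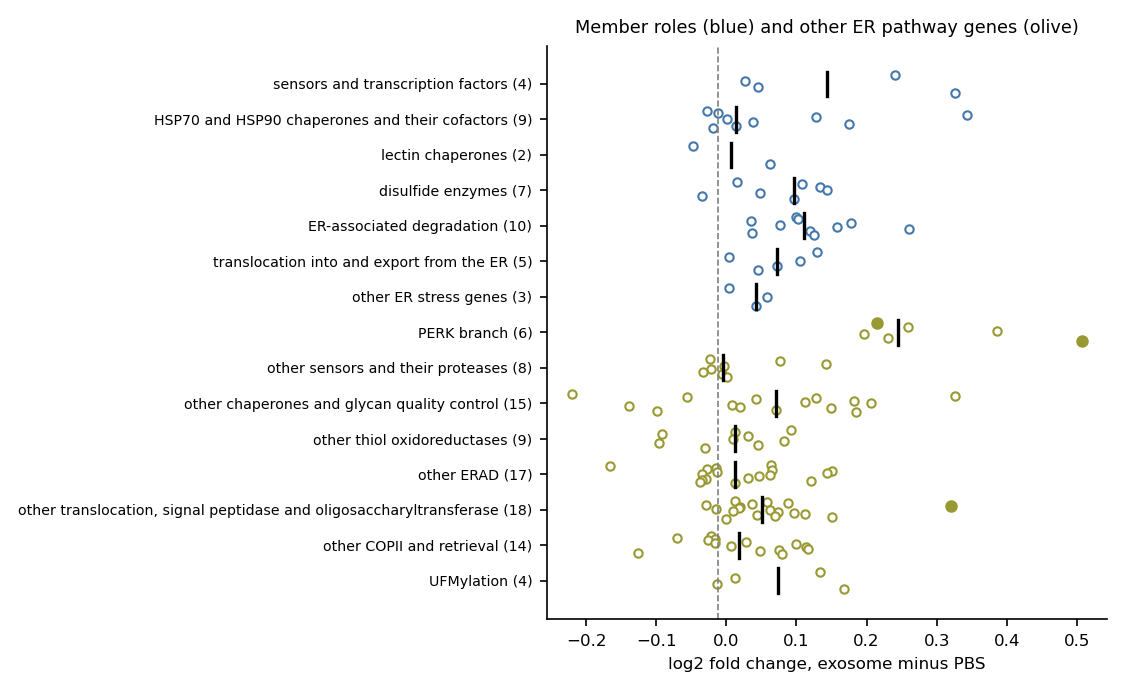
Log2 fold change, exosome minus PBS, of the 40 genes by role (blue) and of 91 other ER pathway genes (olive), 1 point per gene with the group size in brackets; bars are medians, filled points passed the limma threshold, and the dashed line is the median of all genes. The 3 filled points are TRIB3, SEC11C and ATF4, and no blue point is filled.

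The 4 arrays had median intensities of 111 to 112, and their number limits the precision. Of the markers of LNCaP and luminal prostate 6 of 8 were measured, with a summed intensity of 36762 to 37621 with exosomes and 36918 to 36954 with PBS. The 8 markers of PC-3 summed to 1145 to 1187 and 1207 to 1216, and none rose. The extraction text names brain tissue, and 7 of 8 brain markers were measured, of which MBP, also made outside the brain, read 867 and 868 with exosomes and 764 and 764 with PBS. Of these 7 markers 4 were above 0 and 3 below, the lower ones being SNAP25 (log2 -0.05), SYT1 (-0.08) and SLC17A7 (-0.12). The 7 summed to 1509 to 1535 with exosomes and 1380 to 1443 with PBS, and MBP was the largest part of that sum. Their part in the results above was not tested. Control RNAs put into each sample (poly-A spike-ins) read higher by 0.14 on the log2 scale in the exosome arrays. Centring the arrays on them lowers every log2 fold change by that amount. On that scale 8 of the 40 genes were above 0 in place of 35, their median was -0.073 and that of all genes -0.15, while DNAJB9 (0.20), XBP1 (0.19) and HERPUD1 (0.12) remained above 0.

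Each of the 4 arrays was left out in turn. Such a fit has a single array in 1 group, so effect sizes alone are given here. Over the 4 fits the log2 fold change ran from 0.24 to 0.45 for DNAJB9, from 0.18 to 0.35 for HERPUD1 and from 0.21 to 0.45 for XBP1. Without exosome replicate 2 the log2 fold changes of ATF6, PDIA3 and ERLEC1 were 0.10, 0.05 and 0.10. Without exosome replicate 1 those of DERL2 and TXNDC11 were 0.05 and 0.04, and without PBS replicate 2 that of SEC61A1 was 0.05. Genes with smaller values moved by similar amounts, and ERN1, CREB3L2, HSP90B1, PDIA4, ERO1A, EDEM1, SEC31A, PPP1R15A and WFS1 turned below 0 in at least 1 of the 4 fits.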

How the data were processed

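The deposited intensity values, 1 per probe set and array, were normalized by the authors on a linear scale. MAS5 and RMA are listed, per the submitters' processing notes, without a version or what each did; no genome build is given in the sources used here. The arrays were already alike in distribution (largest gap at a rank 0.065 in log2) and were used as deposited. Gene names came from the platform annotation. The probe set with the highest mean log2 value stood for each of 18132 genes. Intensities of different probe sets were set side by side only to choose or describe a gene's brighter probe set, to filter on low values and to sum marker lists, and such differences can come from the probes.

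Values were taken to log2 of the intensity plus 1 and compared by lmFit and eBayes with a trend (limma 3.58.1, R 4.3.3), two-sided, with Benjamini-Hochberg adjustment over all genes, or over 44988 probe sets. The fit had 2 residual and 7.0 prior degrees of freedom. With 2 arrays a group the smallest two-sided p of an exact permutation test is 0.333. Nothing says whether the arrays of a group are separate cultures, so p-values may measure technical spread alone. The fit was tested on simulated data. The members, lists and tests were chosen with earlier results of these data known, and no test over a list was made. Every member was accounted for; array values are given for XBP1, ATF6, ERN1, HSPA5, HSP90B1, DNAJB9, PPP1R15A and those with the smallest p in each role. Of the 97 other genes, those past the threshold and ATF4, DDIT3, EIF2AK3 and TRIB3 were named by rule. DNAJC10, DNAJC1, DERL3, CHAC1 and SESN2 were named after their values were seen. Array values of further members were added after they were seen. The protein sequences planned were not used here. Figures were drawn with matplotlib 3.10.9.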

Additional observations from a re-analysis of the deposited data

How the results depend on the processing

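Among the 40 genes the count past the threshold was 0 in each direction in the reported fit and under the alternatives run, except 1 higher after quantile normalization (DNAJB9) and 3 higher among genes at or above the median level (DNAJB9, HERPUD1, XBP1). Of the 137 probe sets, 1 was higher after quantile normalization and 1 among probe sets at or above the median level. Each was a HERPUD1 probe set. Against the poly-A spike-ins 1, of TXNDC11, was lower. The shares of all probe sets under these settings were not worked out, so these counts cannot be set beside them. The median log2 fold change of the 40 genes was -0.073 against the spike-ins and 0.06 to 0.08 under the other alternatives. The count at an unadjusted p under 0.05 was 10 higher in the reported fit. It was 16 with arrays centred on their median (7.44% of all genes) and 5 by eBayes without a trend (4.87%). Against the spike-ins it was 2, DNAJB9 and XBP1 (0.816% of all). The count was 6 with the mean of all probe sets (4.72%). It was 3 to 8 with an array left out, where the share of all genes ran from 3.30% to 7.49%. In the lower direction, fits with an array left out aside, it was 0, but 1 (CALR) against the spike-ins, where 20.7% of all genes were lower. With an array left out the log2 fold change of CALR ran from -0.15 to 0.06. Of the 91 other ER genes 3 were higher. That count was 5 after quantile normalization (0.998% of all genes) and 5 with arrays centred on their median (0.987%). It was 5 among genes at or above the 30th percentile (1.40% of those) and 6 at or above the median (2.34% of those). Against the spike-ins it was 1 (0.331%), and by eBayes without a trend 0 (0.0993%). The count lower was 0, and 1 (DNAJC1) against the spike-ins, where 326 of all 18132 genes were lower. The filters test fewer genes; for the others the cause was not tested. A pseudocount of 16 and robust eBayes kept these counts within 1.5 times.

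With the replicate number as a block 0 of the 40, 0 of the 137 and 0 of the 91 passed, the last in place of 3. In that fit 2 of all 18132 genes were higher (0.0110%) and 0 were lower. The replicate numbers 1 and 2 are not explained. The deviations of same-numbered arrays from their group means correlated at -0.04 across genes. With 2 arrays per group this is a single value apart from its sign, and it cannot show whether same-numbered arrays share a culture or batch. The arrays' number and, for ERN1 and the dim probe sets, signal near the low end limit the precision.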
